A study of Mus musculus with 30 samples.

Results

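The 9 genes described here, Ifit1, Ifit3, Ifitm3, Irf7, Irf9, Stat2, Isg15, Bst2 and Oasl2, are interferon response genes, and they were taken by symbol from the 21412 genes of the deposited table. Each symbol matched 1 gene. RNA was measured in the hippocampus of male BALB/c mice, an inbred strain, with 1 library per mouse, 5 mice in each of 6 groups and 30 libraries in all. The mice arrived at 2 to 3 weeks of age, had 5 days of acclimatization and were then fed the experimental diets for 11 weeks. The Ctr group received neither mercury nor added selenium. LD and HD mice received the low and the high dose of methylmercury (MeHg), an organic mercury compound that accumulates in fish, in feed spiked with 0.28 and 5 mg MeHg per kg, respectively. The Se_Ctr, Se_LD and Se_HD groups repeated these 3 exposures with selenium, given as selenium-methionine according to the title of the series. The strength of the selenium diet and the mercury content of the feed in its groups were not given in the sources used here. The comparisons ask how each MeHg dose alters the RNA of these genes, and whether selenium alters that response.

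Interferons are secreted proteins that cells release when their sensors meet viral nucleic acid or other danger signals. Type I interferons bind a surface receptor whose kinases phosphorylate STAT2, which joins IRF9 in a complex that enters the nucleus and binds the interferon-stimulated response element (ISRE) in promoters. In the brain, microglia and astrocytes are major producers and responders. Stat2 and Irf9 encode parts of the complex, Irf7 encodes a factor that amplifies interferon production, and the other members encode effectors. Ifit1 encodes a protein that binds foreign RNA, Ifit3 a protein of the same family and Oasl2 a relative of the oligoadenylate synthetases. Isg15 encodes a ubiquitin-like modifier, Ifitm3 a membrane protein that hinders viral entry, and Bst2 a protein that tethers budding virus to the cell surface.

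The ISRE sequences show which promoters carry the element that links these genes to one pathway. In the RefSeq promoter windows of GRCm38.p6 (250 bases before to 50 after each start, with the start as position 0), both strands were searched for the ISRE core, GAAA followed by any 2 bases and GAAA. The windows of 6 of the 9 genes held at least 1 match, compared with 3.99% of 27025 genes. Ifit1, Ifit3 and Ifitm3 had 2 matches each, Stat2 had 1, and Isg15 and Bst2 had 3 and 2 that overlapped one another. The windows of Irf7, Oasl2 and both starts of Irf9 held no stretch with these letters. Each line gives a match in capitals with 10 bases on each side, 5′ to 3′ on the strand of the gene. For Isg15, Bst2 and Ifitm3 only the most upstream match is shown. The overlapping matches of Isg15 and Bst2 run on into the lower-case bases.
Ifit1, -104, chr19:34640775-34640804, plus strand: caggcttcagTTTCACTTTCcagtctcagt
Ifit1, -85, chr19:34640794-34640823, plus strand: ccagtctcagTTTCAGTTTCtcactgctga
Ifit3, -156, chr19:34583363-34583392, plus strand: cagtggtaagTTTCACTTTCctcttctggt
Ifit3, -122, chr19:34583397-34583426, plus strand: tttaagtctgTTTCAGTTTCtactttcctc
Stat2, -222, chr10:128270266-128270295, plus strand: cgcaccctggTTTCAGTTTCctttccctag
Isg15, -78, chr4:156200877-156200906, minus strand: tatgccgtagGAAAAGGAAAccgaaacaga
Bst2, -130, chr8:71537583-71537612, minus strand: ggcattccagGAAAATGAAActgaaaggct
Ifitm3, 2, chr7:141010723-141010752, minus strand: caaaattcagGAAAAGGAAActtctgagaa

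The Ifit1, Ifit3 and Stat2 matches lay on the strand opposite to the gene, and those of Isg15, Bst2 and Ifitm3 on the strand of the gene. Ifitm3 was the exception in position, with both matches after the start. These matches describe letters in a window and do not show binding.

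In the build of the deposited table, NCBIM37, all 9 are annotated as protein-coding. Ifit1 and Ifit3 are neighbours on chromosome 19 (34715361 to 34724499 and 34658021 to 34663221, plus strand). Ifitm3 (148195485 to 148196669) and Irf7 (148448605 to 148452380) lie on chromosome 7, minus strand. Stat2 lies on chromosome 10 (127707629 to 127729905, plus strand), Irf9 on chromosome 14 (56222408 to 56228867, plus strand) and Oasl2 on chromosome 5 (115346943 to 115362243, plus strand). Isg15 (chromosome 4, 155573533 to 155574927) and Bst2 (chromosome 8, 74058163 to 74061336) are on the minus strand. Of the stretches of 75 bases in the Ifit3 transcripts, the length of 1 read, 41.1% also occur in I830012O16Rik, a near-identical neighbouring copy, and 5.19% of those of Ifit1 occur in 2010002M12Rik. The values of Ifit3, and less so of Ifit1, may therefore be split with the copies. Irf9 overlaps Rnf31 on the same strand and Irf7 overlaps Phrf1 on the opposite one.

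Values are normalized counts, that is, reads on a gene divided by a size factor of the library. Reads on genes ranged from 5768208 to 11510521 per library, with group medians between 7119788 (Ctr) and 10159514 (HD). The 8 markers of hippocampal neurons were all present, with a summed level of 7680 to 14800 normalized counts per library. Markers of the choroid plexus, which lies beside the hippocampus, varied from 312 to 38200 between libraries. For the level per length, the median of the Ctr group was divided by exon length. Ifitm3 was highest with 109 normalized counts per kb of exon, followed by Stat2 with 72.3, Bst2 with 30, Irf9 with 27 and Isg15 with 23.7. Ifit3 (6.92), Oasl2 (5.7), Irf7 (5.07) and Ifit1 (4.62) were low, so that single Ctr values of these genes rest on few reads (6 to 20 reads for Ifit1).

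One mouse dominated the members. HD library 21 (HD replicate 2) had the highest level of 30 libraries for all 9 genes, whereas it was highest for 12.9% of the 14296 genes whose mean over the libraries was 10 normalized counts or more. Against the median of the other 4 HD libraries, its levels were 18.5 times as high for Oasl2, 12.2 for Ifit1, 11 for Irf7, 9.59 for Isg15, 9.48 for Ifit3 and 5.12 for Ifitm3, and 2.03, 1.83 and 1.54 times as high for Irf9, Bst2 and Stat2. HD library 9 (HD replicate 5) was the next highest of all libraries for 7 of the 9 genes, the exceptions being Isg15, for which it was the third, and Stat2, for which it ranked 23. The 5 mice of the HD group thus did not share a common level. As 1 mouse can set the mean of a group of 5, the main HD results below are given with and without library 21.

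**Figure D1:**
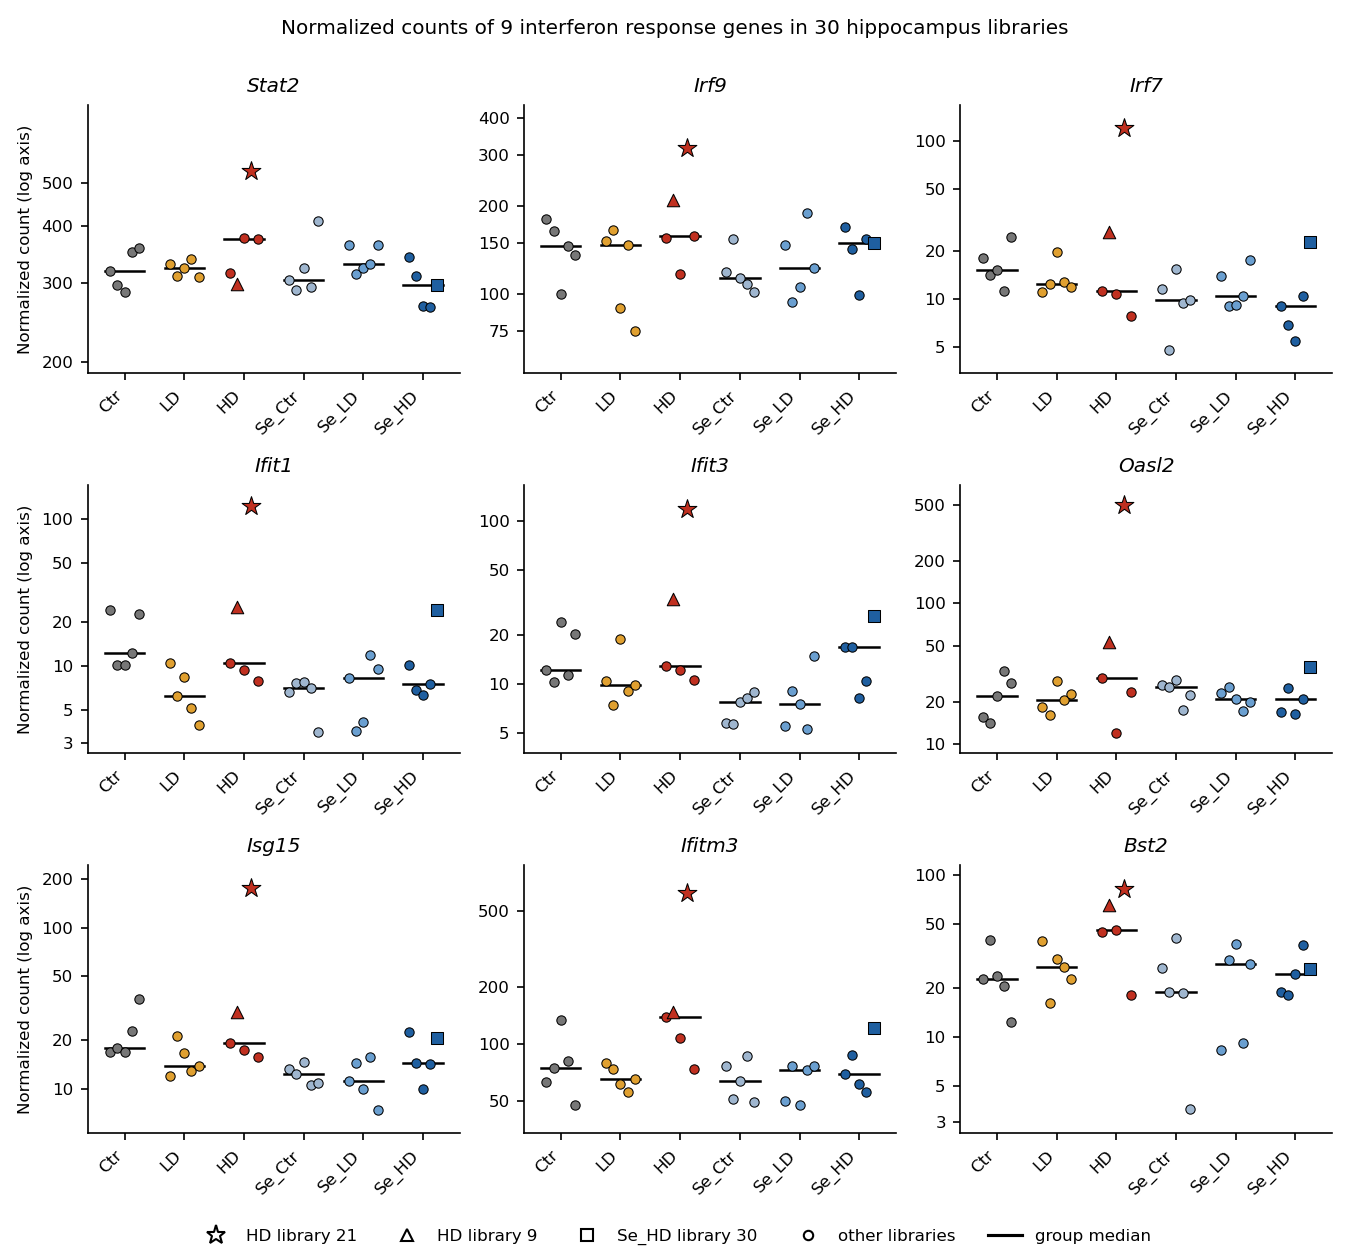
Normalized counts (log axis) of the 9 interferon response genes in each of the 30 libraries, by group, with lines at the group medians. The star, HD library 21, is the highest point in all 9 panels, while the range of the other 4 HD libraries overlaps that of the 5 Ctr libraries in every panel.

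Of the genes of the signalling complex, Stat2 was the most even member. It stood at 319, 297, 286, 352 and 358 normalized counts in the Ctr libraries. In HD libraries 3, 9, 15, 21 and 27 it reached 315, 298, 377, 531 and 375. The groups overlapped, and the log2 fold change of HD against Ctr was 0.21 ± 0.13 (SE), with an unadjusted limma p of 0.117 and an exact permutation p of 0.23. Without library 21 it was 0.08. Stat2 in the LD group kept to the narrow range of 309 to 339.

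Irf9, its DNA-binding partner, ranged from 100 to 181 normalized counts in Ctr mice and from 75.1 to 166 in LD mice. HD values were 117, 156, 158, 210 and 318, of which the 2 highest (libraries 9 and 21) lay above all Ctr mice. Its log2 fold change was 0.34 ± 0.25 and did not pass the test (unadjusted limma p = 0.186, exact permutation p = 0.286), and it was 0.13 without library 21.

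For Irf7, the amplifying factor, the Ctr values were 11.3, 14.1, 15.3, 18.1 and 24.8. In 3 HD mice the level was at or below the lowest Ctr value (7.85, 10.8 and 11.3), and in libraries 9 and 21 it was above all Ctr mice (26.7 and 121). The HD group thus held both the lowest and the highest values of these 2 groups, and the log2 fold change was 0.3 ± 0.5. Without library 21 it was -0.33.

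The effectors Ifit1 and Ifit3 showed the same split. Ifit1 stood at 10.2, 10.2, 12.3, 22.5 and 24.1 in Ctr mice, and at 7.85, 9.42, 10.4, 25 and 121 in HD mice. Ifit3 stood at 10.2, 11.3, 12.1, 20.3 and 23.8 in Ctr mice, and at 10.5, 12.1, 12.9, 33.3 and 118 in HD mice. In both genes 3 HD mice lay within or below the Ctr range and libraries 9 and 21 lay above it. The log2 fold changes were 0.35 ± 0.54 for Ifit1 and 0.63 ± 0.49 for Ifit3, and -0.3 and 0.06 without library 21.

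Oasl2 had the largest gap between library 21 and the rest. Its level there was 494 normalized counts (605 reads), 9.26 times that of the next highest of all libraries. The other HD mice had 12.1, 23.6, 29.7 and 53.3, and Ctr mice 14.1, 15.7, 22.1, 27 and 33.1. The log2 fold change was the highest of the 9 members at 1.12 ± 0.61, but did not pass the test (unadjusted limma p = 0.0826, exact permutation p = 0.294), and it was 0.28 without library 21.

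Isg15, the ubiquitin-like modifier, had values of 16.9, 17, 17.9, 22.7 and 36.1 in Ctr mice and of 15.7, 17.5, 19.3, 30 and 176 in HD mice. Only library 21 exceeded the highest Ctr mouse. The log2 fold change was 0.54 ± 0.47 with all mice and -0.08 without library 21.

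The membrane effectors Ifitm3 and Bst2 were the members that passed the test in HD against Ctr. Ifitm3 stood at 47.3, 62.8, 74.2, 81.3 and 134 in Ctr mice and at 73.3, 108, 138, 148 and 629 in HD mice, so 3 HD mice exceeded every Ctr mouse. Bst2 stood at 12.4, 20.8, 22.9, 23.8 and 39.6 in Ctr mice, and at 18.3, 44.2, 45.7, 65 and 82.4 in HD mice, of which 4 exceeded every Ctr mouse. On the log2 scale Ifitm3 rose by 1.07 ± 0.38 (unadjusted limma p of 0.0109) and Bst2 by 1 ± 0.35 (0.00967). The exact two-sided permutation test of 5 against 5 mice, whose smallest possible p is 0.00794, gave 0.0794 for both. Without library 21 the values were 0.58 for Ifitm3 and 0.79 for Bst2.

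HD against Ctr thus called 2 of the 9 members, both higher, where a call required an unadjusted p under 0.05 in both the F test over Ctr, LD and HD and the contrast (limma). Over all 20031 genes tested, 3.36% were called as higher. Shares of all genes called by this rule are given below in the direction of the members' calls, and in either direction for LD against Ctr, Se_LD against Se_Ctr, Se_LD against LD and the interactions. None of the 9 had an adjusted p under 0.05 (lowest 0.361, Benjamini-Hochberg over all genes, limma), and 0.13% of all genes did. For none of the 9 were the HD and Ctr groups apart without overlap, compared with 1.71% of all genes. The median log2 fold change of the members was 0.54, and that of all genes was 0.0067. Without library 21 only Ifitm3 remained called (0.58 ± 0.25, adjusted p = 0.71, limma), beside 2.31% of all genes, the median was 0.08 and the 9 values spread from -0.33 to 0.79. Without libraries 21 and 9, a setting chosen after seeing the data, 0 of 9 were called by limma (0 with an unadjusted p under 0.05), beside 1.66% of all genes called as higher, and the median was -0.06. The 2 count-based tests run on the recovered reads called more members with all mice, 5 by edgeR (Ifit3, Isg15 and Oasl2 in addition, beside 3.94% of all genes) and 4 by DESeq2 (Ifit3 and Oasl2 in addition, beside 3.63%).

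**Figure D2:**
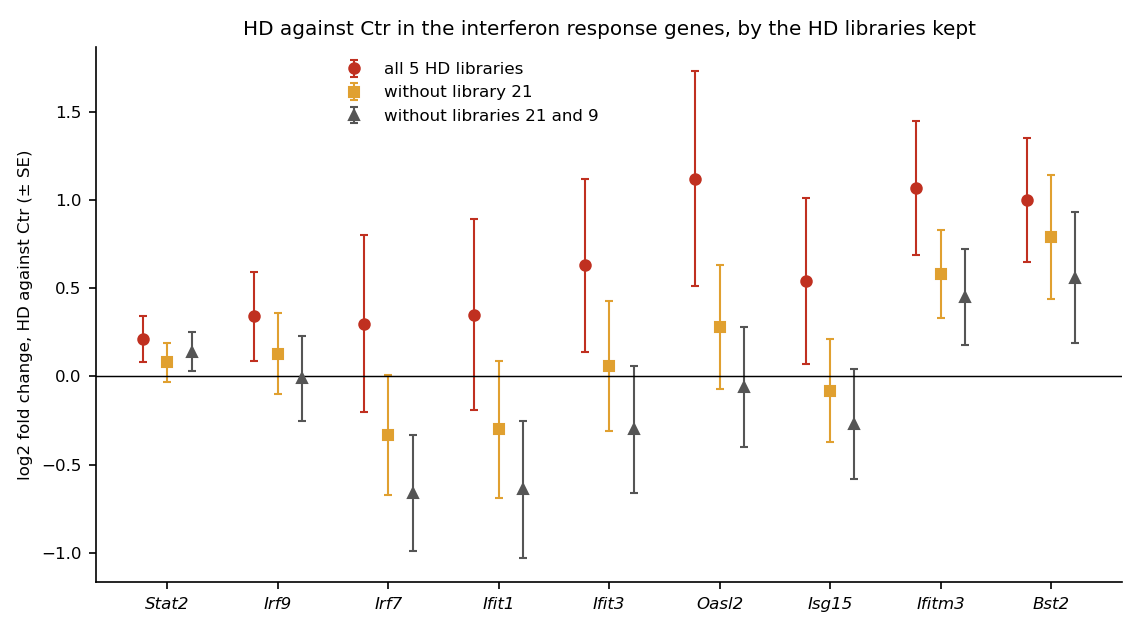
Log2 fold change of HD against Ctr (points, with bars of 1 SE) for each member with all 5 HD libraries, without library 21 and without libraries 21 and 9. Ifit1, Irf7 and Isg15 lie above 0 with all libraries and below 0 without library 21, while Ifitm3, Bst2 and Stat2 stay above 0 in all 3 settings.

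In the low dose group no mouse stood highest for all members, although LD library 14 was the highest LD mouse for Ifit3 (18.8), Irf7 (19.9) and Oasl2 (28.2). LD against Ctr called 0 of 9 members by the limma rule, with 0 unadjusted contrast p-values under 0.05, compared with 1.46% of all genes, and the same control libraries served both MeHg comparisons. The fold changes of 7 of 9 members were below 0, with a median of -0.25 and a lowest unadjusted p of 0.0582. That lowest p was for Ifit1, with LD values of 3.95, 5.15, 6.22, 8.37 and 10.4, of which 4 were below every Ctr mouse. The log2 fold change of Ifit1 was -1.08 ± 0.54 (adjusted p = 0.999, limma, and exact permutation p = 0.0238). Ifit1 was called as lower in LD when library 21 was left out of the fit, beside 1.61% of all genes, with the same fold change and a standard error of 0.37 in place of 0.54.

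Between the doses, HD against LD called 3 of 9 members (Ifit1, Ifitm3 and Bst2, all higher), compared with 3.04% of all genes, and 0 at an adjusted p under 0.05 by limma. The log2 fold changes were 1.43 ± 0.54 for Ifit1, 1.25 ± 0.38 for Ifitm3 and 0.79 ± 0.35 for Bst2, and the median over the 9 was 1.01. Without library 21 these were 0.78, 0.75 and 0.58, only Ifitm3 was called, beside 1.87% of all genes, and the median was 0.39. In these 2 groups Ifitm3 had 4 HD mice above all LD mice (55.4, 61.7, 65.2, 73.4 and 79.3). Of 15 microglia markers, 13 were called as higher in the same comparison (median 1), as were 4 of 8 astrocyte markers. Without library 21 these counts were 13 and 2. The part of these cells in the levels of the members was not tested.

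Selenium alone went with lower levels of some effectors. Se_Ctr against Ctr called 2 of 9 members, Ifit1 and Ifit3, both lower, compared with 0.739% of the 21383 genes tested. On the log2 scale Ifit1 fell by 1.11 ± 0.49 and Ifit3 by 0.94 ± 0.44 (unadjusted limma p of 0.0295 and 0.0388, adjusted p = 1 for both). Se_Ctr mice had 3.58, 6.62, 7.03, 7.6 and 7.78 normalized counts of Ifit1, and 5.7, 5.79, 7.78, 8.2 and 8.96 of Ifit3, so all 5 were below the lowest Ctr mouse (10.2 for both genes). The Isg15 values of Se_Ctr mice, 10.5, 10.8, 12.3, 13.2 and 14.7, were likewise all below those of Ctr mice (16.9 and above), with a log2 fold change of -0.74 ± 0.4 (unadjusted limma p of 0.0701). These 3 of 9 members did not overlap between the groups, compared with 0.421% of all genes that were lower in this way, and each reached the smallest exact permutation p of 0.00794. The 6 other members overlapped between the groups, with log2 fold changes from -0.69 (Irf7) to 0.15 (Oasl2). Isg15 was called as well when library 21 was left out of the fit, beside 0.808% of all genes, and no member was called when Ctr library 25 (Ctr replicate 4) was left out, with log2 fold changes of -0.97 for Ifit1 and -0.83 for Ifit3. At these levels a value rests on a few reads, so the differences are also subject to counting error. Of 8 meningeal fibroblast markers, 2 were called as lower in the same comparison (Slc22a6 and Col3a1), with a median of -0.77, and of 5 erythrocyte markers 1 (Alas2), with a median of -0.85. The erythrocyte sum was 159 to 303 normalized counts in Se_Ctr mice and 233 to 636 in Ctr mice, and the meningeal sum 1800 to 4350 and 1770 to 5190. Of 15 microglia markers 0 were called by limma, with a median of 0.04. The part of these cells in the levels of the members was not tested.

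Within the selenium diet, high-dose MeHg went with a change in 1 member. Se_HD against Se_Ctr called Ifit3 alone of the 9, compared with 1.28% of the 19679 genes tested. Ifit3 had 8.17, 10.4, 16.8, 16.8 and 26.2 normalized counts in Se_HD mice, of which 4 exceeded every Se_Ctr mouse. It rose by 0.92 ± 0.32 on the log2 scale (unadjusted limma p = 0.0088, adjusted p = 1, exact permutation p = 0.0238). The call was lost without Se_HD library 30 (Se_HD replicate 4), although the fold change was still 0.72 and the contrast alone still passed (unadjusted limma p of 0.0353). The median over the 9 members was 0.25 (0.15 to 0.34 with 1 Se_Ctr mouse left out), against -0.0056 for all genes. Meningeal fibroblast markers were also higher, with 6 of 8 called (Ogn, Col3a1, Col1a1, Lum, Col1a2 and Slc22a6) and a median of 0.89. Their sum was 4720 to 7050 normalized counts in Se_HD mice and 1800 to 4350 in Se_Ctr mice, without overlap, and their part in the level of Ifit3 was not tested.

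Se_HD library 30 was the highest mouse of its group for Ifit1 (23.9), Ifit3 (26.2), Irf7 (22.8), Oasl2 (35.3) and Ifitm3 (121). Its Oasl2 and Ifit3 levels were the third highest of all 30 libraries. The other 4 Se_HD mice had 6.36 to 10.1 for Ifit1, 5.45 to 10.4 for Irf7 and 16.3 to 25.2 for Oasl2. No Se_HD mouse reached the levels of HD library 21 in any member.

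Se_LD against Se_Ctr called 0 of 9 members by limma, compared with 1.46% of all genes, with 0 unadjusted contrast p-values under 0.05 and log2 fold changes from -0.17 to 0.26. Se_HD against Se_LD called Ifit3 alone (0.8 ± 0.32, unadjusted limma p = 0.0201, exact permutation p = 0.0476), compared with 1.2% of all genes. The call was lost without Se_HD library 30, Se_LD library 23 or Se_LD library 5, and with all 30 libraries in one fit. Se_LD against LD called 0 of 9, compared with 0.73%, with log2 fold changes from -0.43 (Bst2) to 0.09 (Irf9) and a lowest unadjusted p of 0.349.

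At the high dose, Se_HD against HD called 2 of 9 members as lower, Ifitm3 and Isg15, compared with 2.62% of all genes. Ifitm3 had 55.7, 61.7, 69.6, 87.7 and 121 normalized counts in Se_HD mice and fell by 1.06 ± 0.33 against HD (unadjusted limma p = 0.00335, adjusted p = 0.26, exact permutation p = 0.0556). Isg15 had 9.99, 14.2, 14.5, 20.5 and 22.5 and fell by 0.95 ± 0.4 (unadjusted limma p = 0.0235, exact permutation p = 0.143). Without library 21 these values were -0.56 for Ifitm3 and -0.33 for Isg15. All 9 fold changes were below 0, with a median of -0.92, and the groups overlapped for every member. In the same comparison 13 of 15 microglia markers were called as lower (10 at an adjusted p under 0.05 by limma, median -0.82), as were 5 of 8 astrocyte markers (median -0.31), and without library 21 these counts were 12 and 4. Their part in the levels of the members was not tested. Without library 21 the median of the members was -0.27 and only Ifitm3 was called, beside 1.66% of all genes. Without libraries 21 and 9 the median was -0.03 and 0 were called by limma, beside 1.15% called as lower, although Stat2 had an unadjusted contrast p under 0.05.

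The interaction contrast asks whether the HD effect differed between the diets. It called 0 of 9 members by the limma rule, compared with 2.38% of all genes, and the lowest unadjusted p was 0.048, for Stat2 (-0.33 ± 0.16, adjusted p = 0.997). Without library 21 it again called 0 of 9 by limma, compared with 1.7% of all genes, with 0 unadjusted contrast p-values under 0.05. For Oasl2 the interaction was -1.23 ± 0.7, with a 95% interval from -2.61 to 0.15, and it was -0.39 ± 0.41 without library 21. For Ifit1 it was 0.19 (0.84 without library 21) with an interval from -1.16 to 1.54, so differences of either sign remain within the interval. Without libraries 21 and 9, Ifit1 (1.17 ± 0.55) and Ifit3 (1.22 ± 0.48) were called, beside 1.49% of all genes. With all libraries the interactions of these 2 genes were 0.19 and 0.29 and were not called, and the median of the 9 was -0.3. The interaction of LD with selenium also called 0 of 9 by the limma rule, compared with 1.09% of all genes, with 0 unadjusted p-values under 0.05.

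Over all 6 groups, the F test of limma was under an unadjusted p of 0.05 for 4 of 9 members, Ifitm3 (0.00302), Ifit3 (0.0101), Isg15 (0.0152) and Ifit1 (0.0177), compared with 6.91% of all genes. The lowest adjusted p was 0.229. When the groups were ordered by their median for each member, the ranges of all 45 neighbouring pairs of groups overlapped. HD had the highest median of the 6 groups for Stat2, Irf9, Isg15, Ifitm3, Bst2 and Oasl2, Ctr for Ifit1 and Irf7, and Se_HD for Ifit3.

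The rest of the interferon pathway was examined in a list of 118 further symbols (interferons, receptors and kinases, transcription factors, nucleic acid sensors, type I and type II effectors, ISG15 conjugation and suppressors), of which 97 were in the deposited table. No gene for an interferon itself was among them. In HD against Ctr, 16 of 97 genes were called, all higher, beside 3.36% of all genes, and 0 had an adjusted p under 0.05 by limma. The median of the list was 0.31. Without library 21, 7 remained called (Irf8, Uba7, Lgals3bp, Il10rb, Ptpn6, Tlr7 and Gbp2) of 96 tested, beside 2.31% of all genes, with a median of 0.08.

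Among these, Irf8, a factor of microglia and other myeloid cells, rose by 1.13 ± 0.25 (adjusted p = 0.086, limma) from 20.5 to 30.6 in Ctr mice to 40.2 to 105 normalized counts in HD mice, with no overlap. Uba7, the enzyme that activates ISG15 for conjugation, went from 15.1 to 24.1 in Ctr mice to 28.2 to 49.2 in HD mice, also without overlap, and rose by 0.99 ± 0.24. Both were called without library 21 (0.92 for each). The receptor chain gene Il10rb rose by 0.74 ± 0.22, the secreted glycoprotein gene Lgals3bp by 1.01 ± 0.29, the guanylate-binding protein gene Gbp2 by 0.98 ± 0.35, and the phosphatase gene Ptpn6 by 1.03 ± 0.32 (0.63, 0.7, 0.61 and 0.75 without library 21). Socs3, a feedback inhibitor of cytokine receptors, rose by 1.56 ± 0.5, with 122 of its normalized counts in library 21 against 5.1 to 13.5 in Ctr mice, and was not called without that library (1.02). E330016A19Rik, the older symbol of the DNA sensor gene Cgas, rose by 0.92 ± 0.29, Isg20, an exonuclease gene, by 1.3 ± 0.43 and Ciita, the master regulator of MHC class II, by 1.61 ± 0.52. Without library 21 these were 0.71, 0.98 and 1.48 and were not called. Isg20 (means of 1.47 and 5.26 normalized counts in Ctr and HD) and Ciita (0.823 and 4.12, in 1 of 2 identifiers with this symbol) had few reads in either group. The other Ciita identifier, with a Ctr median of 14.2 normalized counts, was not called in HD against Ctr.

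The same library stood out in the pathway as in the members. Library 21 was the highest of 30 for 57 of the 76 pathway genes at or above that mean (75%), again beside 12.9% of all genes. By class it was highest for 27 of 31 type I effectors, 9 of 11 type II effectors, 8 of 13 sensors and adaptors, and 4 of 8 receptors and kinases. The median log2 ratio of library 21 to the Ctr median was 3.07 for the members, 1.52 for type I effectors, 1.53 for type II effectors and 0.35 for receptors and kinases. In library 9 these medians were 0.97, 0.2, 0.53 and 0.17.

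**Figure D3:**
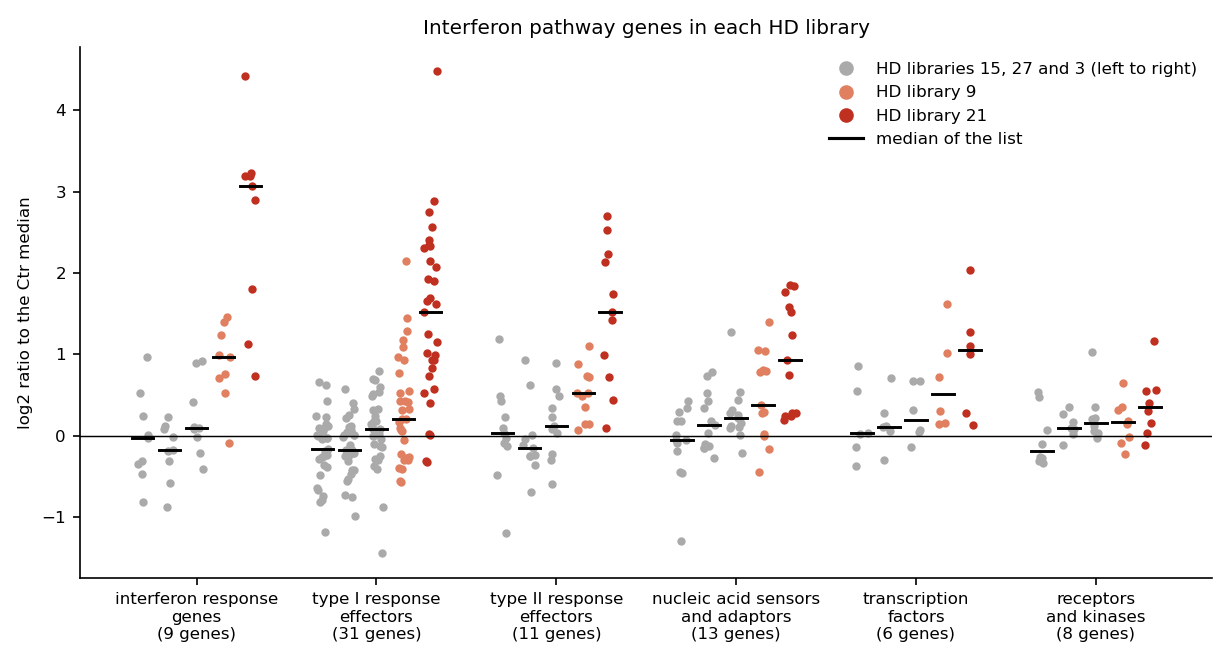
Log2 ratio of each gene to the Ctr median in the 5 HD libraries (15, 27, 3, 9 and 21 from left to right in each list), with lines at the list medians. Library 21 has the highest median in all 6 lists shown, and the medians of the first 3 libraries lie near 0.

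In Se_HD against Se_Ctr, 0 of the 96 pathway genes tested were called by limma, beside 1.28% of all genes called as higher, with a median of 0.04. Se_Ctr against Ctr called 0 of 98 gene identifiers as lower, beside 0.739% of all genes, with a median of -0.08. As higher it called 2, E330016A19Rik and the Ciita identifier with few reads. Of 44 type I effectors tested there, 0 were called by limma, with a median of -0.13. LD against Ctr called 2, a share near the 1.46% of all genes, both lower, Gbp6 (-1.38) and I830012O16Rik (-0.89), the near-identical copy of Ifit3. Se_HD against HD called 14 of 98 gene identifiers, all lower, beside 2.62% of all genes, of which Irf8 fell by 1.07 ± 0.22 with an adjusted p of 0.0187 (limma). Without library 21, 4 of 96 were called as lower, beside 1.66% of all genes, and 1 as higher, Irf8 still fell by 0.85, and 0 had an adjusted p under 0.05 by limma.

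Microglia markers moved with the members in the HD group. Of 15 markers, 14 were called as higher in HD against Ctr, 6 of them at an adjusted p under 0.05 by limma, with a median log2 fold change of 1.09, and without library 21, 13 were called, 3 of them at an adjusted p under 0.05, with a median of 0.79. Their summed level was 3400 to 3720 normalized counts in Ctr mice and 4380 to 10900 in HD mice, without overlap, and 3570 to 4200 in Se_HD mice. In bulk tissue, more cells of a type and more RNA per cell cannot be told apart, nor can fewer cells and less RNA per cell. The order of the 5 HD mice was the same in both sets. The mean log2 difference from the Ctr mean in HD libraries 27, 15, 3, 9 and 21 was 0.35, 0.52, 0.87, 1.59 and 1.78 for microglia markers and -0.27, -0.11, 0.12, 0.8 and 2.55 for the members. All 5 HD mice were above the Ctr range (-0.09 to 0.13) for microglia markers, whereas 2 of 5 were above the Ctr range (-0.12 to 0.14) for the members. Of 8 astrocyte markers 4 were called as higher in HD (3 without library 21). All 9 choroid plexus markers had fold changes above 0 in HD against Ctr, with a median of 1.41 (1.44 without library 21), and 0 were called by limma. Their sum ranged from 7120 to 30100 normalized counts in HD mice and from 868 to 31700 in Ctr mice. The part of any of these cell types in the levels of the members was not tested.

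**Figure D4:**
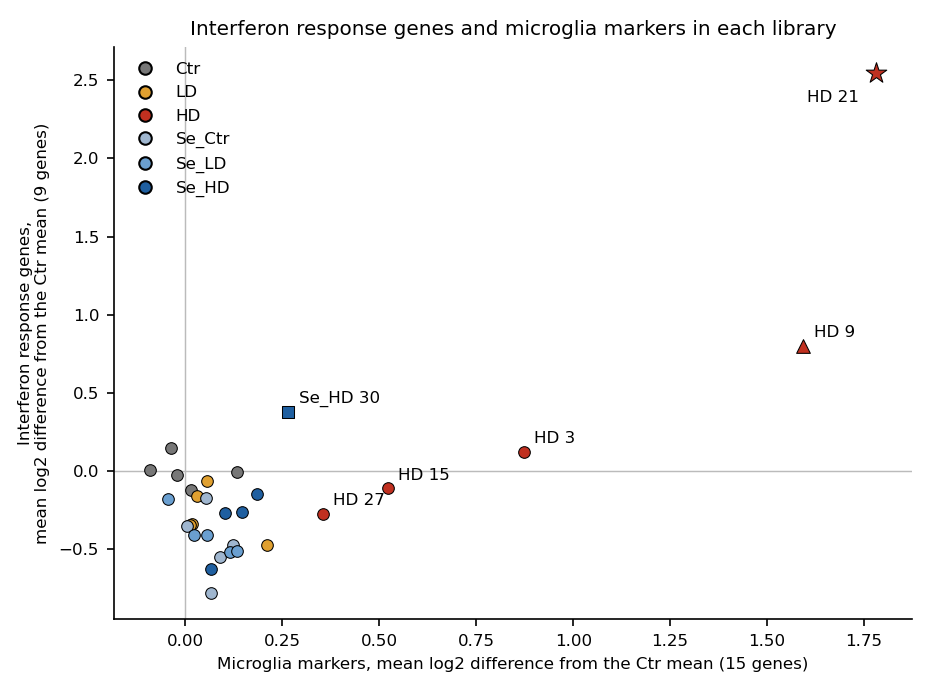
Mean log2 difference from the Ctr mean over the 9 interferon response genes (vertical) against that over 15 microglia markers (horizontal), 1 point per library. HD mice spread to the right from 0.35 to 1.78, and of these only libraries 9 and 21 rise above the Ctr mice on the vertical axis.

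Blood cells were examined in the same way. The summed level of 7 markers of blood monocytes and neutrophils in the table was 263 normalized counts in library 21, its highest value in any library, and 105 to 214 in Ctr mice. Of 6 tested in HD against Ctr, 1 was called. Of 11 markers of T and NK cells, 9 (Cd3e, Cd3g, Cd3d, Cd8a, Cd8b1, Nkg7, Gzma, Gzmb and Klrb1c) were not among the genes of the table, and the other 2 summed to 5.71 in library 21. Erythrocyte markers were low there (162, ranking 24 of 30), and the choroid plexus sum ranked 14. Library 21 was highest for 0 of 8 hippocampal neuron markers, and their sum in it, 10100, lay within the Ctr range of 8680 to 12000. Other lists set it apart. The sum of 6 general neuron markers was 41000 (Ctr 51200 to 61500) and that of 6 oligodendrocyte markers 27000 (Ctr 33300 to 43700), each the lowest of the 30 libraries, and the astrocyte sum was 92400 (Ctr 49500 to 58900), the highest.

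The genes whose pattern over the 30 libraries was most like the mean of the members were Spp1, which encodes the secreted protein osteopontin, the intermediate filament gene Vim, Msn, which links membrane to actin, the hyaluronan receptor gene Cd44 and Ifi30, a lysosomal thiol reductase gene that interferon induces. Likeness was Pearson's r of log2 values over 14296 genes, given as a description without a test, since all points share the libraries and library 21 stood apart from the rest. It was 0.93 for Spp1, 0.92 for Vim, 0.91 for Msn, 0.9 for Cd44 and 0.89 for Ifi30, and 0.77, 0.68, 0.64, 0.61 and 0.69 over the 29 libraries without library 21. The order rested on that library, since without it the 8 genes most like the members were Spp1, Col6a2, Ssh3, Otof, Anxa3, Stab1, Fn1 and Suclg2 (0.77 to 0.7), and of the 5 named above only Spp1 was among them. Spp1 reached 2820 normalized counts in library 21, against a Ctr median of 24.1 and a highest value of 242 in any other library. Cd44 reached 1610 there, against a Ctr median of 61.6. Among the members themselves, Isg15 (0.91), Ifit1 (0.9) and Ifit3 (0.9) were most like their common mean, and Stat2 least (0.52, and -0.11 without library 21). Without library 21, Ifit1 (0.82) and Ifit3 (0.81) were most like that mean, followed by Isg15 and Irf7 (0.72 each).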

How the data were processed

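Libraries were made from 90 ng of total RNA with a stranded mRNA kit and sequenced as single-end reads of 75 bases. Per the study's methods, the authors trimmed reads with TrimGalore 0.4.2, mapped them with Hisat2 2.0.4 to NCBIM37 and counted them per gene with FeatureCounts. The deposited signal values are those counts, which the authors divided by DESeq2 size factors after leaving out genes with a row sum under 10 reads. Whether strand was used in counting was not given in the sources used here. All values (100%) were whole reads times one factor per library within 0.001 reads, so reads were recovered. No pair of libraries was identical. The members, gene lists and tests were chosen with earlier results of these data known.

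Values were log2 transformed after adding 1 and fitted with limma 3.58.1 (R 4.3.3, trended variance) on genes with a sum of 10 or more, over Ctr, LD and HD (20031 genes), the selenium groups (19679) or, between diets, all 30 libraries (21383). Errors are SE. A gene was called when the F test and the contrast both had an unadjusted p under 0.05, following the order of tests in the study, and Benjamini-Hochberg values cover all genes. The 11 comparisons share libraries. All 9 members are named; of the pathway list, the 10 called genes with the lowest p in HD against Ctr are named with values and the others as counts. Gbp6, I830012O16Rik and Tlr7 were named after their values were seen. In simulated HD against Ctr data over 19887 genes, the rule recovered 190 of 200 genes changed by a log2 fold of 1 with 535 false calls. An adjusted p under 0.05 recovered 147 with 4 false calls. The changed genes had a mean of 10 or more normalized counts and were shifted alike in all HD mice. The simulation therefore did not cover lower genes or a change in 1 mouse. Alternatives were pseudocounts of 0.1 and 10, other filters, quantile and TMM scaling, no trend, edgeR 4.0.16, DESeq2 1.42.0, a library set covariate, all libraries in one fit, the contrast alone and leaving out each mouse. Promoters were those of RefSeq for GRCm38.p6, in which all 9 members matched. Python 3.11.15, pandas 2.3.3 and matplotlib 3.10.9 were used. Depth intervals were not computed for single values, and the number of mice limits the precision.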

Additional observations from a re-analysis of the deposited data

Results flagged for a closer look

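The normalized counts of each member, not log transformed, were screened in each group of 5 mice for a mouse far from the others, taken as a gap to the nearest mouse of more than 0.71 of the range of the group. Of 54 groups, 12 held such a mouse. Chance gives about 1 in 20, or 2.7, for normally distributed values, which counts are not. On the log2 scale of the tests, a setting chosen after seeing the data, 3 of 54 groups held one (Isg15 in HD library 21 with a gap of 0.738, Irf7 in LD library 14 with 0.75 and Ifit1 in Se_Ctr library 28 with 0.782), so most of these results depend on the scale. On the scale of normalized counts HD library 21 accounted for 6 of the 12, with a gap of 0.848 of the range for Ifit1, 0.788 for Ifit3, 0.865 for Ifitm3, 0.833 for Irf7, 0.911 for Isg15 and 0.914 for Oasl2. On the log2 scale its gaps for these genes other than Isg15 were 0.532 to 0.673. Members are regulated together, so these are not independent. In Se_HD library 30 the gap was 0.786 for Ifit1 and 0.715 for Irf7, both on the high side. In LD library 14 it was 0.745 for Ifit3 and 0.798 for Irf7, also on the high side, with levels of 18.8 and 19.9 normalized counts that lay within the Ctr range. Se_Ctr library 28 was far below its group for Ifit1 (0.723) and far above it for Stat2 (0.723). The interaction of HD and selenium for Stat2 had a log2 value of -0.33 and an unadjusted limma p of 0.048, but Stat2 was not called (adjusted p = 0.997, and an F test p of 0.139 in limma). Without library 21 the value was -0.2, with an unadjusted limma p of 0.155.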

How the results depend on the processing

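Counts are of the 9 members called. The labels give no replicate numbers shared by the groups, so mice could not be paired by them. A fit was made with the 5 sets of 6 consecutive library numbers, each holding 1 mouse of every group, as a block, although the labels do not say that a set marks a shared litter, day or run. It called 5 members in the 6-group F test and 4 in HD against LD, and the counts of the report were unchanged in the other comparisons. With edgeR the counts were 5 for HD against Ctr, 7 for HD against LD, 1 for Se_Ctr against Ctr, 7 for Se_HD against HD, 2 for the interaction of HD and selenium and 8 for the F test over the 6 groups, and with DESeq2 they were 4, 6, unchanged at 2, 7, 2 and 8. With all 30 libraries in one fit they were 1 for HD against Ctr, 1 for LD against Ctr and 0 for Se_HD against Se_LD. The contrast alone called 6 for HD against LD, 5 for Se_HD against HD and 1 for the interaction. A limma fit without trend called 1 for HD against LD, and a pseudocount of 10 called 0 for Se_Ctr against Ctr. Without HD libraries 21 and 9 the counts were 0 for HD against Ctr, HD against LD and Se_HD against HD, and 2 for the interaction. Leaving out 1 mouse of the groups compared at a time gave 1 to 3 for HD against Ctr, 0 to 1 for LD against Ctr, 1 to 5 for HD against LD, 0 to 1 for Se_HD against Se_Ctr and for Se_HD against Se_LD, 0 to 2 for Se_Ctr against Ctr, 1 to 5 for Se_HD against HD and 0 to 1 for the interaction. HD library 21 also enters the fit of Se_Ctr against Ctr, which called 3 without it. Of the counts and medians, 23 values under other settings and 27 with a mouse left out moved, each of them a count by over 1.5 times, and 142 and 153 did not. This says nothing of the median log2 fold changes, which were judged by their spread between mice and not by a factor of 1.5. In HD against Ctr that spread (1.35) exceeds any shift seen. The median there was 0.54 with all mice, 0.08 to 0.77 with 1 mouse left out, 1.13 by edgeR and by DESeq2, and -0.06 without HD libraries 21 and 9. In Se_HD against Se_Ctr the spread was 0.34, and the median was 0.25 with all mice and 0.15 to 0.34 with 1 Se_Ctr mouse left out.

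In HD against Ctr, leaving out 1 mouse at a time gave log2 fold changes from -0.3 to 0.65 for Ifit1, from -0.33 to 0.62 for Irf7 and from -0.08 to 0.77 for Isg15, the lowest in each case without HD library 21. Without libraries 21 and 9 the fold change changed sign for Ifit1 (-0.64), Ifit3 (-0.3), Irf7 (-0.66), Irf9 (-0.01), Isg15 (-0.27) and Oasl2 (-0.06). Leaving out any other HD mouse alone kept Ifit1, Irf7 and Isg15 above 0. The cause was not tested. There were 5 mice per group and as few as 6 reads behind a Ctr value of Ifit1. How small a difference could be detected in the low members was not tested.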
